A study of Mus musculus with 4 samples.

Results

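Slpi, Prg4, Fn1, Gata6, Itga6, Cd93, Alox15, Icam2, Saa3 and Fcrls are genes known from resident macrophages of the peritoneal cavity or from related macrophages, and they were followed here in single cells of mouse liver. They are 10 of the 31053 genes in the deposited matrix and were chosen by symbol. The choice was made with results of these data known: several had higher UMI sums in Ex than in Sed Kupffer cells, so their levels in that comparison are given below as a description with no test. A UMI (unique molecular identifier) marks 1 captured RNA molecule. The libraries came from livers of male mice at 8 weeks of age. They had been injected with MC38, which are colorectal cancer cells of mouse origin, and the design concerns metastasis to the liver under surgical stress. Ex mice had exercised, which the design text also calls PEx, and Sed mice were sedentary; every liver was taken 3 weeks after tumour injection, so both groups bore tumours. Non-parenchymal liver cells were bead-enriched for CD45, the pan-leukocyte surface protein, and run as 3′ libraries, 2 per group. The labels do not say that the 2 libraries of a group came from separate animals, so p-values measure only the spread between these libraries.

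The barcodes numbered 7012 and 5297 in the Ex libraries, against 7992 and 8224 in the Sed libraries, with between 23918964 and 41027638 UMIs per library. After filters on genes, mitochondrial UMIs and doublets, 5763 and 4097 Ex cells and 6839 and 7141 Sed cells were kept. Kept cells of Ex had median mitochondrial shares of 3.92% and 4.35%, against 2.61% and 2.95% in Sed. A total of 83 barcode sequences occurred in 2 libraries, and 0 of the barcodes described below as Prg4 barcodes were among them. Clusters were named from marker lists, so all classes carry the ending -like. Kupffer-like cells, with Clec4f, Vsig4 and Cd5l, numbered 251 and 84 in Ex and 278 and 900 in Sed. Macrophage-like cells numbered 1035 and 341 in Ex and 285 and 498 in Sed, in a cluster led by Cxcl9, Arg1 and Spp1 and another led by Ccl8, Cd207 and C1q genes. Monocyte-like cells numbered 754 and 381 in Ex and 1356 and 1604 in Sed, and different clusters held most of them. The cluster led by Vcan held 76 and 47 Ex cells against 1096 and 1092 Sed cells, and the cluster led by Ace held 606 and 304 Ex cells against 203 and 375 Sed cells.

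Macrophages take on a tissue-specific programme under the influence of their surroundings. In the peritoneal cavity, retinoic acid made by mesothelial and stromal cells induces the transcription factor Gata6, which drives much of the gene programme of the large macrophages that live there. In the liver, the resident macrophages are Kupffer cells, which carry the lectin Clec4f and do not depend on Gata6. Large peritoneal macrophages can adhere to and enter an injured liver through its surface.

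Among the secreted products, Prg4 encodes lubricin, a mucin-like lubricant of joints and serous surfaces. Fn1 encodes fibronectin, an adhesive matrix glycoprotein that peritoneal macrophages make together with coagulation factors. Slpi encodes an inhibitor of serine proteases such as neutrophil elastase, and Saa3 encodes an acute-phase serum amyloid A protein made outside the liver parenchyma. Alox15 encodes a lipoxygenase that oxygenates polyunsaturated fatty acids. At the surface, Itga6 encodes an integrin chain that binds laminin, Icam2 a ligand of leukocyte integrins, Cd93 a C-type lectin-like receptor of endothelial and myeloid cells, and Fcrls a scavenger receptor-like protein best known from mouse microglia. In the GENCODE annotation of GRCm38 all 10 genes are protein coding. Prg4 lies on the minus strand at chr1:150449412-150466165, Fn1 on the minus strand at chr1:71585520-71653200 and Alox15 on the minus strand at chr11:70344152-70352031. Slpi lies on the minus strand at chr2:164354070-164389095 and Saa3 on the minus strand at chr7:46711998-46715700.

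RefSeq promoters (GRCm38.p6, from 250 bases before the start to 50 after it) were at hand for 3 of the 10 genes. All 3 are shown. In the barcodes described below Slpi was detected with Prg4 in most and Fcrls in none, while Saa3 was part of the rule that defined them. Capitals mark matches to GATAA, the core of sites that GATA factors bind, on the given strand, or to its reverse complement TTATC. The Slpi promoter is chr2:164356458-164356757, the Saa3 promoter chr7:46715627-46715926 and the Fcrls promoter chr3:87263475-87263774, each read on the minus strand.
Slpi: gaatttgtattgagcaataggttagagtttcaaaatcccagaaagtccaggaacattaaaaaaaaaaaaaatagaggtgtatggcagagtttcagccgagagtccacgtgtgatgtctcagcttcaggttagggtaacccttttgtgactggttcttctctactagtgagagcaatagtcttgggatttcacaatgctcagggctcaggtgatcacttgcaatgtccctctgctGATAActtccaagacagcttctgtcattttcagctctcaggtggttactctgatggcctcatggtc
Saa3: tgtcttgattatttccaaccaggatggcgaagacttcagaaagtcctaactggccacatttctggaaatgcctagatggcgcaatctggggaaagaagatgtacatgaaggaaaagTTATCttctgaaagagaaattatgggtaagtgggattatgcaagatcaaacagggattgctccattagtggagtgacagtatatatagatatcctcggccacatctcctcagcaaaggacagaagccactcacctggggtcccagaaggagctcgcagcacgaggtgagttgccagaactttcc
Fcrls: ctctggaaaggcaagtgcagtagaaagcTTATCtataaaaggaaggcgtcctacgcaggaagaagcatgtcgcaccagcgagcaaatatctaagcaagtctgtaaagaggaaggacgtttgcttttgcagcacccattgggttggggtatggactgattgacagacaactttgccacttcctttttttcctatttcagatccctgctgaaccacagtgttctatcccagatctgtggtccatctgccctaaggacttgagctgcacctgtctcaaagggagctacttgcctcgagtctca
Each of the 3 windows held 1 match, and 25.4% of the 32851 promoters of the same length held at least 1. AGGTCA, a core bound by retinoid receptors, or its reverse complement TGACCT was in 0 of the 3 windows and in 16.3% of all promoters. The matches are a description of letters and not of binding.

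Prg4 and Alox15 were found in very few barcodes. Over all 28525 barcodes, Prg4 had 259 UMIs in 51 barcodes, of which 35 had a single UMI and 10 had at least 3. Alox15 had 235 UMIs in 42 barcodes, of which 26 had a single UMI and 10 at least 3. Gata6 had 36 UMIs in 28 barcodes with at most 6 in any of them, and 12 of its 22 UMIs in kept cells were in stellate- and fibroblast-like cells. A single UMI of a gene can come from free RNA in the droplet: T-cell-like cells, which should lack lubricin, held 11 Prg4 UMIs in 3046 cells.

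A barcode with at least 2 Prg4 UMIs and at least 1 UMI each of Fn1 and Saa3 is called a Prg4 barcode here, a rule chosen after the values were seen. There were 14: 6 and 6 in the Ex libraries, against 1 and 1 in the Sed libraries. As a share of barcodes this was 0.0856% (95% exact binomial interval 0.0314 to 0.186%) and 0.113% (0.0416 to 0.246%) in Ex, against 0.0125% (0.000317 to 0.0697%) and 0.0122% (0.000308 to 0.0677%) in Sed. Both Ex shares lay above both Sed shares, while the intervals overlapped between libraries; intervals cover counting error only. Across libraries the share averaged 0.0994 ± 0.0196% in Ex and 0.0123 ± 0.00025% in Sed (SD, n = 2 each). No p is given, since the genes and the rule were chosen on these libraries. With 1 Prg4 UMI as the minimum the counts were 15 in Ex and 4 in Sed, and with 4 UMIs they were 8 in Ex and 2 in Sed.

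**Figure D1:**
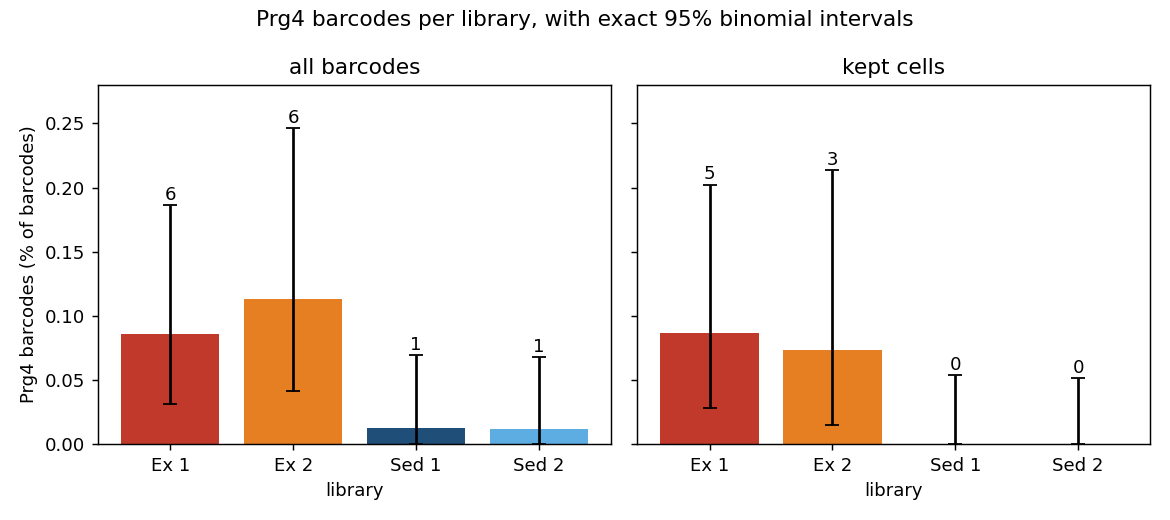
Share of Prg4 barcodes in each library (y axis, % of barcodes), among all barcodes (left) and among cells kept after the filters (right); bars are shares, lines are exact 95% binomial intervals and the numbers are counts of barcodes. The Ex libraries hold 6 and 6 Prg4 barcodes and the Sed libraries 1 and 1, of which 5 and 3 in Ex and 0 and 0 in Sed were kept.

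The cell filters removed 6 of the 14. Kept Prg4 barcodes numbered 5 and 3 in Ex and 0 and 0 in Sed, where a count of 0 leaves an exact upper bound of 0.0539% and 0.0516%. Doublet scores removed 4 barcodes, 1 in each library, and mitochondrial shares of 18.6% and 11.5% removed the other two, both from Ex replicate 2. The doublet score limit differed between libraries. The Prg4 barcode of Sed replicate 2 was removed at a score of 0.137, while 1 of Ex replicate 1 was kept at 0.145. Prg4 barcodes had between 1546 and 14283 UMIs.

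The secreted products were abundant in these barcodes. Prg4 itself ranged between 2 and 40 UMIs in the 12 Ex barcodes and had 21 and 24 UMIs in the Sed barcodes. Fn1 ranged between 2 and 265 UMIs in Ex and had 35 and 46 UMIs in Sed, and Saa3 ranged between 3 and 890 UMIs in Ex and had 310 and 10 UMIs in Sed. The rule asked for these 3 genes, so their presence is no finding, and neither group stood apart in their level per barcode.

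The other genes had no part in the rule for barcodes. Slpi had up to 147 UMIs in Ex barcodes and 17 and 93 UMIs in the Sed barcodes, and was detected in 11 of 14. The lipoxygenase Alox15 had up to 63 UMIs in Ex and 0 and 18 UMIs in Sed, and was detected in 9 of 14. Itga6 reached 23 UMIs in Ex with 22 and 4 UMIs in Sed, and Icam2 reached 10 UMIs in Ex with 1 and 20 UMIs in Sed. Itga6 was detected in 10 and Icam2 in 11 of the 14. Gata6 had 1 UMI in each of 4 barcodes, and Cd93 had 5 UMIs in 4 barcodes. Fcrls had 0 UMIs in all 14. Thus 4 of the 7 genes that the barcode rule did not use were present in most Prg4 barcodes, Gata6 and Cd93 in few, and Fcrls in none. Over all 2159 macrophage-like cells Slpi was detected in 314, Alox15 in 6, Itga6 in 196 and Icam2 in 266. Gata6 was in 1 of them, Cd93 in 925 and Fcrls in 69. Over all 4095 monocyte-like cells Slpi was detected in 2705, Alox15 in 3, Itga6 in 132 and Icam2 in 549. Gata6 was in 1 of those, Cd93 in 2139 and Fcrls in 5. The genes were chosen with these data known, so the count is a description.

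**Figure D2:**
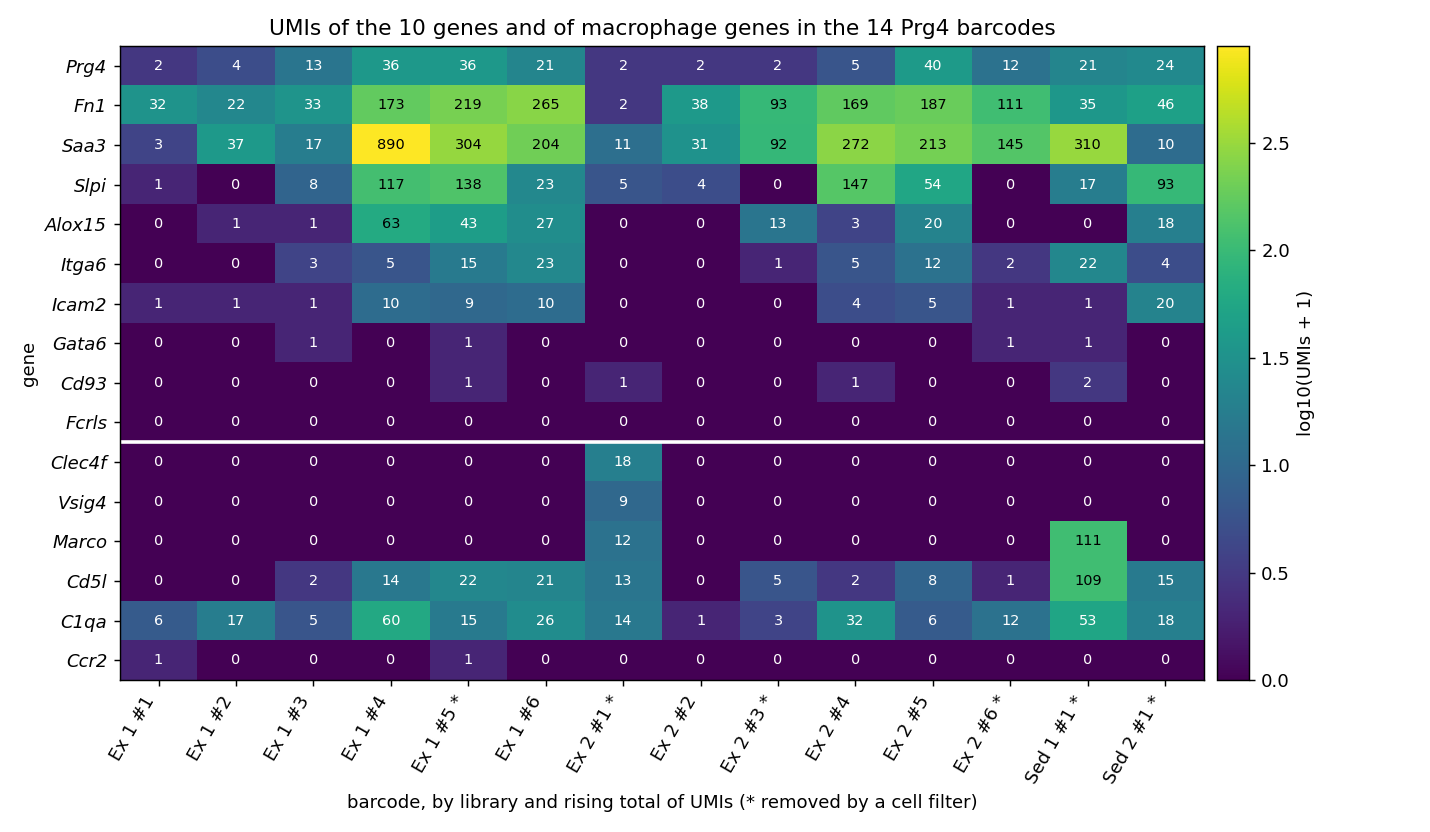
UMIs of the 10 genes (upper block) and of 6 macrophage and monocyte genes (lower block) in the 14 Prg4 barcodes, 12 from Ex and 2 from Sed; colour is log10(UMIs + 1), and an asterisk marks barcodes that a cell filter removed. Clec4f is at 0 in 13 of the 14 columns, and Fcrls is at 0 in all of them.

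These barcodes held most of the Prg4 and Alox15 RNA of the study and little of the rest. They held 84.9% of all Prg4 UMIs and 80.4% of all Alox15 UMIs, 189 of 235. Their share was 18.6% for Saa3 and 11.1% for Gata6, and 4.31% for Itga6, 1.94% for Fn1, 1.52% for Icam2 and 1.17% for Slpi. For Cd93 it was 0.0432%.

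Clec4f, the Kupffer cell lectin, was absent from 13 of the 14 Prg4 barcodes. Those 13 held 0 Clec4f UMIs in 131401, against 5233 CPM (UMIs scaled to a common total) in Kupffer-like cells; at a floor of 3 UMIs over the 13 barcodes, or 22.8 CPM, the level was at least 229-fold higher in Kupffer-like cells. The exception, in Ex replicate 2, had 18 Clec4f UMIs with 9 of Vsig4, 12 of Marco and 13 of Cd5l, only 2 UMIs each of Prg4 and Fn1, and the mitochondrial share of 18.6%. Cd5l, a secreted protein of tissue macrophages that Kupffer cells also make, was present in 11 of the 14. One Sed barcode had 111 UMIs of the scavenger receptor Marco and 109 of Cd5l but 0 of Clec4f. The complement gene C1qa was detected in all 14, and the monocyte chemokine receptor Ccr2 had 2 UMIs in total.

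Most marker lists of other cell types were low in the Prg4 barcodes. Endothelial markers (7 genes), stellate and fibroblast markers (6 genes) and basophil and mast cell markers (5 genes) were at 0. Mesothelial markers, whose cells also make lubricin-rich surfaces, had 1 UMI in all, with 9 of 10 genes at 0. B cell markers had 1 UMI. T cell markers were at 135 CPM, against 95.7 CPM in macrophage-like cells, and their 18 UMIs were all in 1 kept barcode of Ex replicate 1. The platelet list was at 1324 CPM, against 1463 CPM in platelet-like cells, all of it from Pf4. The Kupffer list was at 3054 CPM, against 20134 CPM in Kupffer-like cells, and ranged between 0 and 45278 CPM over the barcodes. The monocyte list was at 2369 CPM, against 19766 CPM in monocyte-like cells. The macrophage list was at 11170 CPM, against 27562 CPM in macrophage-like cells.

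Other genes of the peritoneal macrophage programme were higher in the same barcodes than in macrophage-like cells. Of 14 further genes on that list, 9 had at least 20 UMIs over the Prg4 barcodes and the macrophage-like cells, and 8 of the 9 were more than 2-fold higher in Prg4 barcodes than in macrophage-like cells, with a median ratio of 17.2. Over all 10877 genes with as many UMIs, 16.3% were more than 2-fold higher, 3548 were more than 2-fold lower and the median ratio was 0.885. Serpinb2, an inhibitor of plasminogen activators, was at 647 CPM in Prg4 barcodes, against 2.14 CPM in macrophage-like cells. Coagulation factor genes were also higher: F5 was at 376 CPM in Prg4 barcodes, against 5.39 CPM in macrophage-like cells, and F10 at 594 CPM, against 125 CPM. Thbs1, thrombospondin 1, was at 1136 CPM in Prg4 barcodes and 498 CPM in macrophage-like cells. Monocyte-like cells had Thbs1 at 1055 CPM and F10 at 323 CPM, and Thbs1 reached 1499 CPM in those of Sed replicate 2. The level of Thbs1 thus did not set Prg4 barcodes apart from monocyte-like cells. F5 and Serpinb2 were lower in monocyte-like cells, at 34.97 and 15.76 CPM. The count of 8 and the median ratio above refer to macrophage-like cells only. The chemokine gene Cxcl13 was the exception on that list, with 0 UMIs in Prg4 barcodes and 854 CPM in Kupffer-like cells. These lists were written with earlier results known, and the ratios are descriptions of 14 barcodes.

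Genes of the small peritoneal and serous cavity macrophages had no common direction. Of 5 with enough UMIs, 2 (40%) were more than 2-fold higher, beside 16.3% of all genes, and 2 more than 2-fold lower. The median ratio was 0.514. Ccr2 was at 15.04 CPM in Prg4 barcodes and 525 CPM in macrophage-like cells, and the mannose receptor gene Mrc1 had 0 UMIs in Prg4 barcodes and 165 CPM in macrophage-like cells. Among 9 retinoid and transcription factor genes linked to Gata6, 3 were more than 2-fold higher and 0 lower, with Klf2 at 1046 CPM in Prg4 barcodes and 183 CPM in macrophage-like cells. Partners of the proteins gave 4 higher and 3 lower of 12, where 3548 of 10877 genes were lower over the whole set. Itgam, the CD11b chain, was at 1459 CPM in Prg4 barcodes and 267 CPM in macrophage-like cells, and Itgb1, a chain that pairs with Itga6, was at 895 CPM in Prg4 barcodes and 190 CPM in macrophage-like cells. Of 14 Kupffer identity genes 5 were more than 2-fold higher and 5 lower, with a median ratio of 0.683.

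Ranked by the ratio of CPM in Prg4 barcodes to CPM in the other Kupffer-like, macrophage-like and monocyte-like cells, with at least 20 UMIs and a ratio above 1 in both Ex libraries, the endothelin receptor gene Ednrb came first at 308 CPM in Prg4 barcodes, against 2.73 CPM in the other cells. Ltc4s, an enzyme of cysteinyl leukotriene synthesis, was also among the leading genes, at 624 CPM in Prg4 barcodes against 9.59 CPM in the other cells. Serpinb2, Selp, Fgfr1, F5, Timp2, F7 and Il6 were further leading genes, with ratios between 63.3 and 11.5. Il6 was detected in 3 of the 14 barcodes, whereas Ltc4s and Timp2 were each detected in 12. Of the platelet list only Pf4, a platelet and macrophage chemokine, was detected, while Ppbp, Gp9 and Itga2b were at 0.

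Within the macrophage-like class the pairs could be counted without the barcode rule. Prg4 and Alox15 were detected in 8 and 6 of 2159 cells and together in 4, against 0.0291 from the product of their shares within each library. All 4 were Prg4 barcodes described above, so this count restates them and adds no support. Prg4 and Saa3 were together in 6 cells, against 0.739, and Prg4 and Slpi in 5, against 1.13. All 5 cells with Slpi, and all but 1 of those with Saa3, were Prg4 barcodes too, so these counts also restate them. With every cell thinned to 1000 UMIs, Prg4 and Alox15 were together in 3 cells, all of them Prg4 barcodes, against 0.0116. Fcrls was detected with Slpi in 2 cells, against 9.78, with Itga6 in 22, against 6.18, and with Saa3 in 8, against 6.25. It was with Prg4 in 0 cells, against 0.256, too few to tell apart from none. In monocyte-like cells Prg4 was together with Alox15 in 2 cells, against 0.0159, with Saa3 in 6, against 2.24, and with Slpi in 7, against 7.39. Both cells with Alox15 and 3 of those with Saa3 were Prg4 barcodes. In Kupffer-like cells Prg4 was in 2 cells, in 1 of them with Saa3, against 0.0327, and in 0 with Slpi, against 0.0308. After thinning, Alox15 was in 0 of 3976 monocyte-like cells and Prg4 in 0 of 924 Kupffer-like cells, so these pairs were not seen at equal depth. Prg4 and Saa3 were then together in 1 monocyte-like cell, against 0.0788. In macrophage-like cells, with all UMIs, Cd93 was together with Prg4 in 1 cell, against 3.56. Cells of 1 library share their source, and no p is given.

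Fcrls was detected in 103 barcodes, and 13 had at least 4 UMIs: 7 and 2 in Ex, against 1 and 3 in Sed. Of those 13, 11 were macrophage-like, 11 had Cd93, 10 had C1qa, 1 had Saa3, and 0 had Prg4, Alox15, Slpi or Clec4f. Prg4 and Alox15 are so rare over all barcodes that their absence from 13 says little.

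Across classes in which each library had 37 cells or more, each gene had its own order of levels. Slpi was highest in neutrophil-like cells, at a median over the 4 libraries of 1829 CPM (range 1524 to 2718), followed by monocyte-like cells at 336 CPM (280 to 373) and macrophage-like cells at 125 CPM (82.7 to 138), and these ranges did not overlap. Neutrophil-like cells held 55.3% of the Slpi UMIs of kept cells. Kupffer-like cells were at 17.1 CPM (3.69 to 51.9), a range that overlapped those of T-cell-like and B-cell-like cells, which were at 11.1 CPM (8.36 to 14.7) and 9.54 CPM (2.78 to 25.4). Fn1 was highest in monocyte-like cells at 1535 CPM (1029 to 2021), with macrophage-like cells at 347 CPM (240 to 485), and monocyte-like cells held 82.7% of its UMIs. The limit of 37 cells left out platelet-like cells, at 1562 CPM of Fn1 (1260 to 1998) and 236 CPM of Slpi (115 to 479). It also left out plasmacytoid-dendritic-like cells, at 283 CPM of Slpi (155 to 371), and plasma-cell-like cells, at 2640 CPM of Slpi (0 to 10714). Saa3 was at 294 CPM (63.5 to 455) in macrophage-like and 49.3 CPM (24.9 to 580) in monocyte-like cells, which overlapped because Sed replicate 1 had 580 CPM.

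The surface genes were not macrophage-restricted. Cd93 was highest in endothelial-like cells at 317 CPM (182 to 397), then in macrophage-like cells at 144 CPM (109 to 157) and monocyte-like cells at 123 CPM (99.6 to 181). Icam2 was likewise highest in endothelial-like cells, at 172 CPM (76.5 to 215). Itga6 was at 33.1 CPM (18.5 to 49.2) in T-cell-like and 21.7 CPM (17.4 to 26.3) in macrophage-like cells, which overlapped. Fcrls was at 9.43 CPM (5.53 to 13.96) in macrophage-like cells and at most 2.12 CPM in any library of the next classes by median, T-cell-like and NK- and ILC1-like cells. Single libraries reached 5.65 CPM in cDC1-like and 5.46 CPM in Kupffer-like cells, so the cDC1-like range overlapped that of macrophage-like cells. The class named cDC1-like, of conventional dendritic cells, also had Cd209a and Flt3 of the cDC2 marker list among its leading genes. At resolution 2 there was a cDC2-like cluster of 502 cells beside a cDC1-like cluster of 194, so the name covers both kinds.

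**Figure D3:**
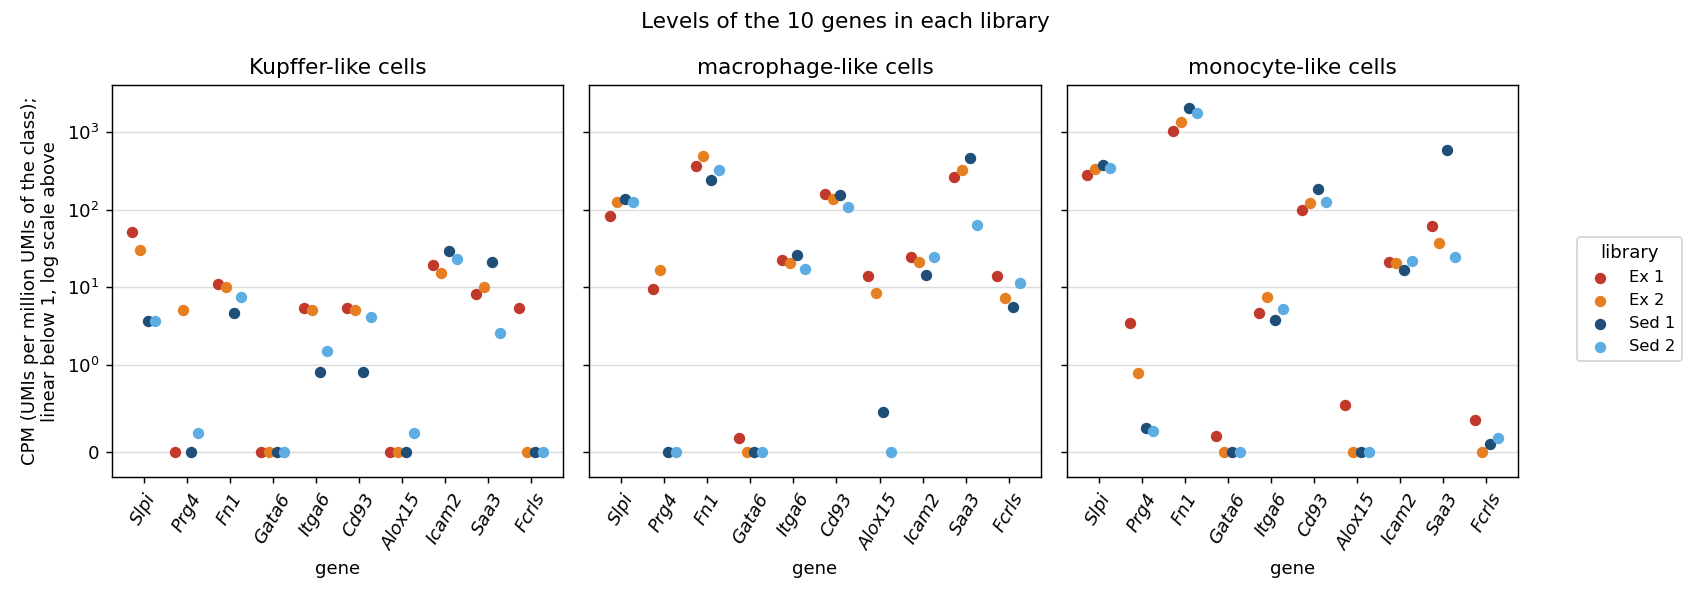
CPM of each gene (y axis, linear below 1 and logarithmic above) in the 2 Ex and 2 Sed libraries, within Kupffer-like, macrophage-like and monocyte-like cells; each point is 1 library. Prg4 is at 9.41 and 16.5 CPM in Ex macrophage-like cells and at 0 in both Sed libraries, and Saa3 of Sed replicate 1 stands at 580 CPM in monocyte-like cells.

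In Kupffer-like cells the genes were scarce. Slpi had 19 and 6 UMIs in Ex, against 4 and 17 UMIs in Sed, which is 51.9 and 30.4 CPM in Ex and 3.70 and 3.69 CPM in Sed. The log2 difference was 3.55. The 46 Slpi UMIs came from 25 of 1513 Kupffer-like cells, and those of Ex from only a few of these cells. The difference thus rests on few cells. Icam2 had 19.1 and 15.2 CPM in Ex and 29.6 and 23.0 CPM in Sed, a log2 difference of -0.51. Prg4 had 0 and 1 UMIs in Ex and 0 and 1 UMIs in Sed, Alox15 had 0 and 0 in Ex and 0 and 1 in Sed, and Gata6 had 0 in all. Only Slpi and Icam2 passed the low-count filter, and edgeR called 0 of the 2, beside 0% of the 6646 genes tested; this contrast took part in the choice of the genes, so nothing is read from the count. At an unadjusted p under 0.05 edgeR had 672 genes, and DESeq2 called 18.

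Among macrophage-like cells, those of Ex held nearly all Prg4 and Alox15 UMIs after the filters used here. Prg4 had 62 and 45 UMIs in Ex and 0 and 0 UMIs in Sed, and Alox15 had 92 and 23 UMIs in Ex and 1 and 0 UMIs in Sed. Prg4 barcodes, 5 kept cells, held 97.2% of the Prg4 and 98.3% of the Alox15 UMIs of Ex macrophage-like cells, and also 60.4% of their Saa3, 38.8% of their Slpi and 22.1% of their Fn1 UMIs. edgeR called 0 of the 9 genes tested, beside 0.0417% of all 9586 genes; 3 of the 9 had an unadjusted p below 0.05, and by DESeq2 both Prg4 and Alox15 were called. Without 1 library at a time edgeR called between 1 and 3 of the 9, always Prg4 or Alox15, and Saa3 as well without Sed replicate 1. With the stricter cell filter the class held 1 Prg4 barcode of Ex and 1 of Sed, and the log2 difference of Prg4 was -0.0525. The class overlaps the cells on which the genes were chosen, and Prg4 and Alox15 passed the low-count filter through Ex alone, so the values are descriptions.

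Several levels rested on those cells in the Cd207 cluster, which earlier results had counted with the Kupffer cells. There Slpi was at 85.7 and 458 CPM in Ex and 20.7 and 7.31 CPM in Sed, a log2 difference of 4.40. In Ex, 2 Prg4 barcodes of the cluster's 375 Ex cells held 264 of 274 Slpi UMIs. Without them Slpi was at 4.88 and 9.38 CPM in Ex against the same Sed values, and the log2 difference was -1.08. On the same log2 scale Fn1 had 4.82 with and 2.43 without them, and Saa3 4.09 with and 1.77 without them. Fcrls and Cd93 had 0 and 1 UMIs in those 2 barcodes, so their differences could hardly move. Fcrls, at 48.4 and 58.0 CPM in Ex and 11.7 and 17.4 CPM in Sed, had log2 differences of 1.76 with and 1.79 without them, and Cd93 1.01 and 1.04. In this cluster edgeR called 0 of the 9 genes tested and 0% of all 7932; 588 genes were under an unadjusted p of 0.05 and DESeq2 called 9. With any 1 library left out edgeR called 2 or 3 of the genes, all higher in Ex and among Fn1, Slpi, Prg4, Alox15 and Saa3. These counts are descriptions too, since the genes were chosen partly on these cells and Prg4 and Alox15 passed the low-count filter through Ex alone.

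**Figure D4:**
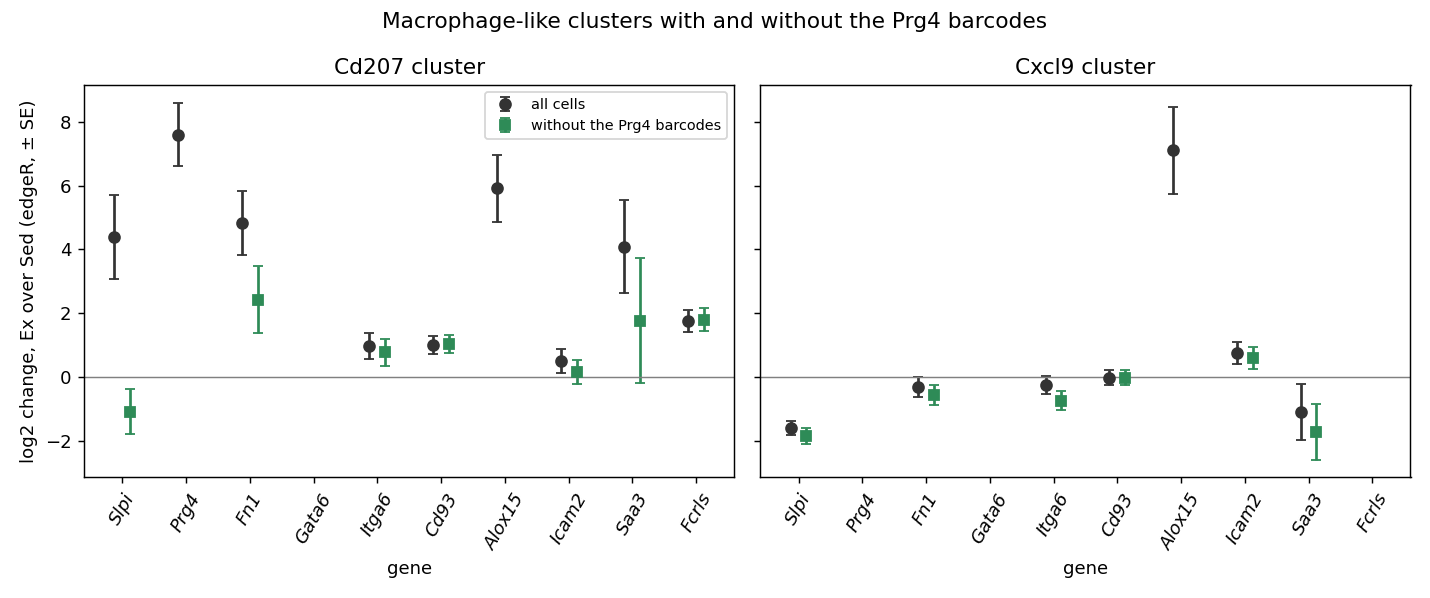
Log2 difference of Ex over Sed for the genes tested in the Cd207 cluster (left) and the Cxcl9 cluster (right), from edgeR, with all cells (circles) and without the Prg4 barcodes (squares); lines are standard errors. In the Cd207 cluster Slpi stands at 4.40 with and -1.08 without them, and in the Cxcl9 cluster at -1.60 and -1.85.

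Cells of the Cxcl9 cluster took no part in the choice of the genes. Slpi was lower in Ex there, at 81.8 and 77.6 CPM, against 202 and 294 CPM in Sed, with no overlap. The log2 change was -1.60 ± 0.22 (SE) and the adjusted p by edgeR 0.00475, with 2.12e-06 by DESeq2; without the Prg4 barcodes it was -1.85 with an adjusted p of 0.00539. The call was lost without Ex replicate 1, where the change was -1.66 and the adjusted p by edgeR 0.0683, and held with each other library left out. Neutrophil markers, all 7 detected, moved with Slpi, at a sum of 282 and 273 CPM in Ex and 1706 and 1193 CPM in Sed. At the number of Slpi UMIs per marker UMI in the neutrophil-like cells of the same libraries, those sums go with 2.28 and 3.15 CPM of Slpi in Ex and 10.0 and 13.8 CPM in Sed. The monocyte list was also higher in Sed, at 8903 and 8129 CPM in Ex and 11609 and 9523 CPM in Sed. The macrophage list overlapped between groups, at 15181 and 13239 CPM in Ex and 21309 and 13440 CPM in Sed. The Kupffer and plasma cell lists overlapped as well. The part of these lists in the Slpi change was not tested. Slpi was the only gene of the list that was lower at the threshold in this cluster. Alox15 was the other one of 7 tested that edgeR called, beside 2.13% of all 8563 genes, with 5.64 and 8.35 CPM in Ex and 0 and 0 in Sed. It passed the filter through Ex alone, 3 Prg4 barcodes held 47 of its 49 UMIs, and without Ex replicate 1 its adjusted p was 0.409. Fn1, Itga6, Cd93, Saa3 and Icam2 did not pass the threshold, with log2 differences between -1.09 and 0.76. Fn1 passed without Sed replicate 1, at -0.76 with an adjusted p by edgeR of 0.0186, and Saa3 without Sed replicate 2, at -1.80 with 1.06e-14.

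In monocyte-like cells Fn1 was lower in Ex. It was at 1029 and 1349 CPM in Ex and 2021 and 1720 CPM in Sed, with no overlap, a log2 change of -0.70 ± 0.16 (SE) and an adjusted p by edgeR of 0.0441. It was 1 of 6 genes tested that passed, beside 3.77% of all 10801 genes, and DESeq2 gave it an adjusted p of 0.0117. The call was lost without Ex replicate 1, at -0.54 with an adjusted p of 0.439, and without Ex replicate 2, at -0.89 and 0.338. Because the Vcan cluster held few Ex cells, Fn1 was set side by side within each large cluster. In the Vcan cluster it was at 1203 and 1862 CPM in Ex and 2294 and 1992 CPM in Sed (log2 -0.55, adjusted p by edgeR 0.553), where 0.042% of 9535 genes were called. In the Ace cluster it was at 1244 and 1599 CPM in Ex and 668 and 997 CPM in Sed (log2 0.83, adjusted p 0.128), where 0.796% of 8543 genes were called. The difference over the class thus ran against the one in the Ace cluster, and neither cluster alone passed the threshold with all libraries. In the Ace cluster Fn1 passed without Sed replicate 1, at 0.60 with an adjusted p by edgeR of 0.00778, and without Sed replicate 2, at 1.11 with 4.54e-09.

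**Figure D5:**
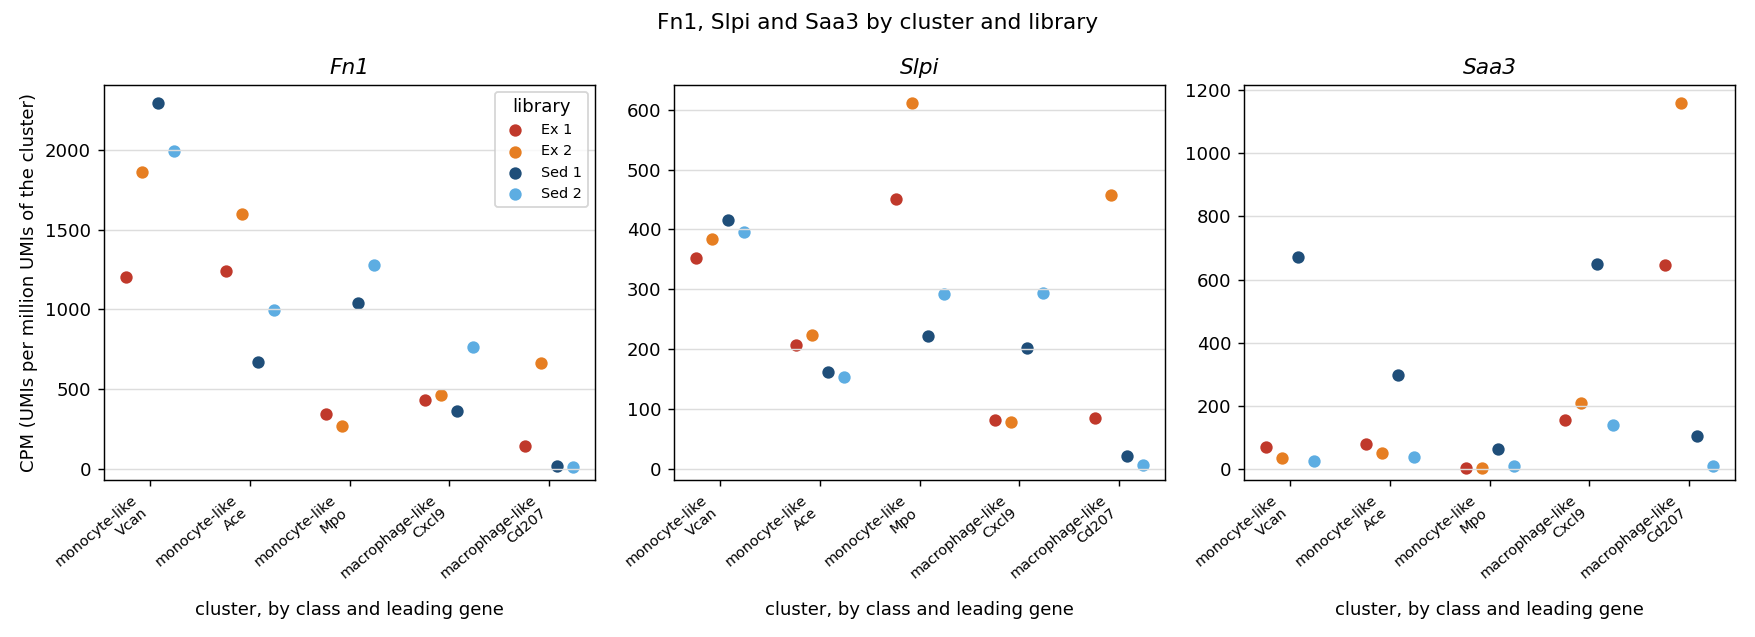
CPM of Fn1, Slpi and Saa3 (y axes) in each of 5 monocyte-like and macrophage-like clusters, named by class and a leading gene; each point is 1 library, Ex left of Sed. Fn1 is lower in Ex over the Vcan cluster and higher in Ex over the Ace cluster, and Sed replicate 1 stands high for Saa3 in several clusters.

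The other genes tested in monocyte-like cells were not called. Slpi was at 280 and 333 CPM in Ex and 373 and 339 CPM in Sed, a log2 difference of -0.26. Cd93 was at 99.6 and 123 CPM in Ex and 181 and 123 CPM in Sed, with a log2 difference of -0.51 and an adjusted p by edgeR of 0.253, which became 0.000218 without Sed replicate 2 (log2 change -0.79). Saa3 turned on 1 library: it had 339 and 124 UMIs in Ex and 6517 and 308 UMIs in Sed, and its log2 difference of -2.68 ± 2.09 (SE) was 1.00 without Sed replicate 1 (adjusted p by edgeR 0.00042) and -3.61 without Sed replicate 2 (5.44e-71). Of the further peritoneal macrophage genes, 2 of 9 tested were lower in Ex and 0 higher, beside the 3.77% of all genes called. Thbs1 was at 404 and 581 CPM in Ex and 1026 and 1499 CPM in Sed, with a log2 change of -1.40 and an adjusted p by edgeR of 0.0231. F10 was at 204 and 222 CPM in Ex and 406 and 327 CPM in Sed, with a log2 change of -0.83 and an adjusted p of 0.028. Among 14 genes of partner proteins tested, Elane alone passed, the neutrophil elastase that Slpi inhibits, at 547 and 716 CPM in Ex and 237 and 163 CPM in Sed, with a log2 change of 1.60 and an adjusted p of 0.0158. Without Ex replicate 1, and likewise without Ex replicate 2, edgeR called 0 genes in this class. These genes too differed between clusters of unlike size. Within the Vcan cluster Thbs1 was at 922 and 1553 CPM in Ex and 1184 and 1766 CPM in Sed, and F10 at 299.9 and 319.6 CPM in Ex and 439.6 and 333 CPM in Sed. Within the Ace cluster Thbs1 was at 425 and 514 CPM in Ex and 368 and 924 CPM in Sed, and F10 at 213 and 239 CPM in Ex and 393 and 406 CPM in Sed. Elane came mostly from the cluster led by Mpo, with 72 and 30 Ex cells and 57 and 137 Sed cells, where it was at 2304 and 3230 CPM in Ex and 2180 and 864 CPM in Sed. Within single clusters Thbs1 overlapped between groups in both of the larger ones, and no test of these 3 genes was made there. In the retinoid and transcription factor list and the small peritoneal list 0 genes passed in this class.

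Cells with a UMI of at least 3 of the 10 genes were counted as multi-member cells. Among monocyte-like cells they made up 32.6% and 39.1% in Ex and 70.1% and 48.2% in Sed. Neither Ex library reached a Sed library, and the means were 35.9 ± 4.58% in Ex and 59.2 ± 15.5% in Sed (SD, n = 2 each). Saa3, 1 of the genes counted, had 6517 UMIs in Sed replicate 1, against 308 in Sed replicate 2 and 339 and 124 in Ex. Its part in these shares was not tested. The exact two-sided permutation test gave p = 0.333, the smallest that 2 against 2 libraries allow. The difference was -23.3 percentage points, and -6.73 with every cell thinned to 1000 UMIs. Here too the Vcan cluster held most of the Sed cells and the Ace cluster most of the Ex cells. In macrophage-like cells the share was 12.2% and 15.2% in Ex and 22.8% and 10.4% in Sed, which overlapped, and in Kupffer-like cells it was 0 and 0% in Ex and 0 and 0.556% in Sed. B-cell-like cells, which should lack most of the genes, had 1 multi-member cell in 4281, at a lower median depth of 2188 UMIs than the 7459 UMIs of monocyte-like cells.

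Multi-member cells were mostly not of the Prg4 kind. In the monocyte-like class, 98.5% of the 2119 had Fn1, 92.3% Slpi, 82.9% Cd93 and 38.7% Saa3. In the macrophage-like class, 83.1% of the 295 had Cd93, 82.0% Fn1, 54.2% Slpi and 40.7% Saa3. By the same ratio rule the genes most like them were Muc13, with a ratio of 24.8, Dio2 with 12.5 and Sgip1 with 9.12, all of them rare, followed by the granule and progenitor genes Mpo with 7.37, Ctsg with 6.72 and Myb with 5.84. The next 5 genes, Gfi1 and Prss57 among them, had ratios between 5.36 and 4.69, and Lcn2 and Wfdc21 followed at 4.42 and 4.33.

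Clec4f was found in few multi-member cells outside Sed replicate 2. In the monocyte-like class 0.813% and 1.34% of Ex multi-member cells had a Clec4f UMI, against 2.31% and 11.3% in Sed. The other monocyte-like cells had it in 1.57% and 0.862% in Ex and 2.47% and 5.78% in Sed. In Sed replicate 2 the exact 95% intervals, 9.11 to 13.7% in multi-member cells and 4.29 to 7.59% in the others, did not overlap, at median depths of 8578 and 6328 UMIs. In macrophage-like cells the multi-member share with Clec4f was 2.38% and 1.92% in Ex and 1.54% and 9.62% in Sed, and the share in the others was 6.16% and 4.84% in Ex and 5.00% and 32.1% in Sed. In each library the macrophage-like multi-member cells had the lower share and the higher median depth, and the exact intervals of the 2 kinds of cell overlapped in 3 of the 4 libraries. B-cell-like, T-cell-like and neutrophil-like cells that were not multi-member should lack Clec4f, and had it in between 0.764% and 1.39% of cells in the Ex libraries, between 1.42% and 3.85% in Sed replicate 1 and between 5.78% and 7.85% in Sed replicate 2, at lower median depths. Shares up to those of the same library were not read as expression. The 11.3% of Sed replicate 2 lay above them. In the same library 10.5% (7.29 to 14.5%) of cDC1-like cells that were not multi-member had it, at a median of 6672 UMIs. The 11.3% was thus not read as expression either, and the part of depth in this was not tested. In Kupffer-like cells 89.0% of cells had it, and only 5 Kupffer-like cells, all of Sed replicate 2, were multi-member.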

How the data were processed

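Single-cell 3′ RNA libraries of CD45+ liver cells, 2 Ex and 2 Sed, were analysed. The authors deposited raw UMI counts per gene and barcode, made with Cell Ranger 7.0.0 on builds mm10 and GRCm38 per the submitters' processing notes, while the matrix header gives 6.1.1. Of 51140 columns, 22615 carried no barcode in the barcode list and were not used. Barcodes were given to libraries by their number suffix, taken to follow the order of the samples, which limits every comparison. Library totals were 32969739 and 23918964 UMIs in Ex and 37563756 and 41027638 UMIs in Sed.

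A barcode was kept with 200 or more genes and a mitochondrial share of up to 10%, and the highest Scrublet scores up to 0.8% per 1000 cells were removed, 293 and 144 barcodes in Ex and 422 and 462 in Sed. Clustering used scanpy 1.11.5 and leidenalg 0.10.2 (10000 UMIs per cell, 2000 variable genes, 30 components, 15 neighbours, resolution 1), under Python 3.11.15 with matplotlib 3.10.9, pandas 2.3.3, anndata 0.12.19, numpy 2.4.6, scikit-learn 1.9.0 and scipy 1.17.1. A cluster took the class of its best marker score, given a score of 1 or more and 3 markers seen in 10% of its cells or more.

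Each class was summed to 1 UMI count per gene and library and fitted in edgeR 4.0.16 under R 4.3.3 (quasi-likelihood, TMM scaling, filterByExpr, robust dispersion), with Benjamini-Hochberg adjustment over all genes tested and a threshold of 0.05. DESeq2 1.42.0 was the alternative. CPM are UMIs of a gene scaled to a common total of UMIs in the class. On simulated counts of the macrophage-like comparison, with 9360 genes run, edgeR called 50 of 100 genes changed 2-fold, 99 of 100 changed 4-fold and 11 unchanged genes.

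The genes and lists were chosen with earlier results of these data known. All 10 genes were named, together with up to 4 per list with the most UMIs and the leading genes by ratio, of which 1 is not reported here. Other alternatives were no low-count filter, 500 genes and 5% mitochondrial UMIs, doublets kept, resolution 2, each library left out, a replicate block, thinning to 1000 UMIs and other minimum numbers of genes. Added after the data were seen were the Prg4 barcodes and fits without them, the Kupffer-like cells joined with the Cd207 cluster, a crossed block and single clusters.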

Additional observations from a re-analysis of the deposited data

Results flagged for a closer look

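Barcodes that the cell filters removed entered no comparison of classes, yet 4 of 2449 removed Ex barcodes were Prg4 barcodes, or 0.163%, against 2 of 2236 removed Sed barcodes, or 0.0894%. Both Prg4 barcodes of Sed were among those removed, so counts over kept cells alone gave 8 in Ex and 0 in Sed. Both were removed by doublet scores, whose limit differed between libraries. No test was made.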

How the results depend on the processing

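Counts of called genes moved with most settings, and the cause was not tested. In Kupffer-like cells the count of 0 became 18 with DESeq2, 99 with no low-count filter, 36 with doublets kept, 43 with the replicate block and 16 with the crossed block, and lay between 0 and 160 with 1 library left out. In macrophage-like cells the count of 4 became 143 with DESeq2, 665 with no low-count filter, 67 with the stricter cell filter, 336 with doublets kept, 16 at resolution 2 and 47 with the crossed block, and lay between 10 and 303 with 1 library left out. In monocyte-like cells the count of 407 became 1265 with no low-count filter, 261 with the stricter cell filter, 1464 with the replicate block and 116 with the crossed block, and lay between 0 and 1784 with 1 library left out. The Cxcl9 cluster had 182, 694 with no filter and between 34 and 1193 with 1 library left out. The Cd207 cluster had 0, 9 with DESeq2, 131 with no filter, 2 with the block and between 12 and 91 with 1 library left out. For the Vcan cluster these were 4, 18 with DESeq2, 189 with the block and between 0 and 283. For the Ace cluster they were 68, 119 with DESeq2, 450 with no filter, 130 with the block and between 34 and 1137. The labels do not pair the libraries, and same-numbered libraries correlated at 0.101, -0.0705 and 0.0647 in the 3 classes. The replicate block brought Slpi in Kupffer-like cells (3.37, adjusted p by edgeR 0.0354; the genes were chosen on this comparison, so this supports nothing) and Cd93 in monocyte-like cells (-0.48, 0.0421) past the threshold and changed no other call of the 10 genes in the 3 classes or in the Cxcl9, Cd207, Vcan and Ace clusters.

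Signs turned as follows, on the log2 scale. Icam2 in Kupffer-like cells (-0.51) was 0.27 with the stricter filter, 0.28 with doublets kept, and 0.36 with and 0.0601 without the Prg4 barcodes when joined with the Cd207 cluster. In macrophage-like cells the stricter filter gave Fn1 -0.0688, Prg4 -0.0525, Itga6 -0.36, Saa3 -0.61 and Icam2 -0.0744, doublets kept gave Itga6 -0.51, Fcrls -0.82 and Saa3 -0.60, and resolution 2 gave Itga6 -0.0417, Fcrls -0.15 and Saa3 -0.64. There, without the Prg4 barcodes, Itga6 was -0.32 and Saa3 -1.05. With 1 library left out, values in macrophage-like cells lay between -0.23 and 0.39 for Itga6 (Ex replicate 1 left out: -0.0249), -0.00952 and 0.50 for Cd93, -0.19 and 1.06 for Fcrls, -0.60 and 2.28 for Saa3, and -0.00304 and 0.73 for Icam2. In monocyte-like cells they lay between -3.61 and 1.00 for Saa3 and -0.10 and 0.25 for Icam2. In single clusters they lay between -0.76 and 0.32 for Fn1, -0.29 and 0.33 for Cd93 and -1.80 and 0.40 for Saa3 (Cxcl9), -3.74 and 1.09 for Saa3 (Vcan), and -2.12 and 0.94 for Saa3 and -0.47 and 0.14 for Icam2 (Ace). Cd93 in the Cxcl9 cluster was 0.00828 with no filter, and Slpi in the Cd207 cluster -1.08 without the Prg4 barcodes.

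Fn1 in monocyte-like cells also lost its call with the stricter filter (-0.49, adjusted p by edgeR 0.134), with doublets kept (-0.68, 0.0553) and with the crossed block (-0.71, 0.0809), and kept it in the 5 other settings run besides the libraries left out. For multi-member cells the difference of -0.278 percentage points in Kupffer-like cells was 0.193 with at least 2 genes, 0 with at least 4, 0.36 with 2 of the 6 restricted genes, 0 when thinned and 1.69 with doublets kept, and lay between -0.556 and 0 with 1 library left out. In macrophage-like cells -2.91 became -10.6 with doublets kept, and in monocyte-like cells -23.3 became -6.73 when thinned. The 2 Prg4 barcodes of Sed became 0 in kept cells and 4 with 1 UMI as the minimum. Clustering moved the class of the Prg4 barcodes: of the 12 in Ex, 5 were macrophage-like and 3 monocyte-like, but with doublets kept 2 were Kupffer-like, 2 macrophage-like, 4 monocyte-like and 2 T-cell-like, and both of Sed were Kupffer-like. With the stricter filter 1 of Ex was macrophage-like, 4 monocyte-like and 2 unnamed, and 1 of Sed was macrophage-like; at resolution 2, 3 of Ex were macrophage-like, 2 monocyte-like and 3 unnamed. Depth limits Gata6, Prg4 and Alox15 in all classes.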
